A study of Mus musculus with 8 samples.

Results

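The 32 genes described here make and handle cholesterol, and they were chosen by symbol from a list of pathway genes, by a rule that uses no measured value. That list was itself drawn up with earlier results of these data known. All 32 were found among the 55487 genes of the table, and all 32 were high enough to be tested. They are 8 enzymes of the mevalonate pathway, 11 enzymes that turn farnesyl diphosphate into cholesterol, 5 genes that control the SREBP transcription factors, both LXR receptor genes, and 6 genes of sterol transport and esterification. RNA of the ileum, the last stretch of the small intestine, was sequenced in bulk after poly(A) selection from mice treated with irinotecan, a topoisomerase I inhibitor used against cancer that injures the intestine. The WT group was Gsdme+/+ (4 mice) and the Gsdme_KO group was Gsdme-/- (4 mice), and both groups carried the same treatment. Gsdme encodes gasdermin E, which forms pores in the cell membrane after cleavage by caspases. The strain, sex, age, dose, time after treatment and way in which Gsdme was disrupted were not given in the sources used here. Untreated mice were not analysed here, and the comparison is between genotypes under irinotecan, not of the response to it.

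Cells make cholesterol from acetyl-CoA through mevalonate, farnesyl diphosphate, squalene and lanosterol. When membrane sterol is low, SCAP carries the SREBP proteins from the endoplasmic reticulum to the Golgi, where they are cut and released to switch on the synthesis genes, and INSIG proteins hold SCAP back when sterol is plentiful. The LXR receptors sense oxysterols and switch on genes of sterol export. In the small intestine, NPC1L1 takes up sterol at the brush border, the ABCG5 and ABCG8 half-transporters pump it back into the lumen, SOAT2 esterifies it for chylomicrons and ABCA1 exports it to lipoproteins on the other side of the cell.

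Promoter sequences were read from RefSeq for the 27 of 32 members with an entry, as the 250 bases upstream of each annotated start (GRCm38.p6, both strands searched). The SREBP element was searched as TCACNCCA, the NF-Y box as CCAAT, the Sp1 box as GGGCGG and the LXR element as AGGTCA repeated on the same strand after a gap of 4 bases. The 3 sites that matched the SREBP element are shown because their genes stand at the head, in the middle and in the control of the pathway. Capitals mark the match, and each site is written 5′ to 3′ on the gene's strand.
Hmgcs1, chr13:119690203-119690232, plus strand: acgtcaccgtcTCACCCCActtcccaggtc
Msmo1, chr8:64733737-64733766, minus strand: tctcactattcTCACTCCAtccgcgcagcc
Srebf2, chr15:82147096-82147125, plus strand: atgacgcaccaTCACCCCAtgagccgcttc
The matches began 137, 177 and 162 bases upstream of the RefSeq start. For Msmo1 the GENCODE gene starts further upstream, so its site lies in an exon of a longer annotated transcript, and 214 of the 250 bases of its window are exonic. The SREBP element was thus present in 3 of 27 members, against 4.20% of the 27025 genes with a promoter entry. The LXR element was in 0 of 27 members and in 0.0148% of all genes. Only the exact letters were searched, and so rare a match is not expected in a list of this size. The result therefore does not show that the members lack LXR elements.

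CCAAT was the letter pattern that most members shared. It occurred in 21 of 27 members and in 15 of the 16 synthesis enzymes with an entry, Acat2 being the one without it. The background was 37.5% of all 27025 genes and 39.8% of the 11680 of them that were tested here. A gene counted if any of its windows matched, for members and background alike. The matching windows of Dhcr7, Idi1 and Tm7sf2 lay wholly in annotated exons, at 250 of 250 bases each. GGGCGG occurred in 20 of 27 members, against 35.4% of all genes and 60.7% of tested genes. The upstream windows of 3 enzymes and of the uptake transporter are given in full to show these boxes. Capitals mark TCACNCCA and CCAAT on the strand shown, or CCAAT on the other strand (ATTGG).
Hmgcs1, chr13:119690101-119690350, plus strand: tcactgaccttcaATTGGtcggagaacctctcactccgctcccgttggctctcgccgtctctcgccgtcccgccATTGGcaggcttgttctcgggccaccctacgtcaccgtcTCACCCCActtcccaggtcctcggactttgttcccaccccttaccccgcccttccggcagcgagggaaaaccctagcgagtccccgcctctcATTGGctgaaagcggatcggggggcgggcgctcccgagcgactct
Mvd, chr8:122443423-122443672, minus strand: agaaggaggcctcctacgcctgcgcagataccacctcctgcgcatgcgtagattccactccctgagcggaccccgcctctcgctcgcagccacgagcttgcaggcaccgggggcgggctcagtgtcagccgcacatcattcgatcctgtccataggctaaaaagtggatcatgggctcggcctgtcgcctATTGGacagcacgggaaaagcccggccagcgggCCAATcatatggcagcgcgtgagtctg
Sc5d, chr9:42264301-42264550, minus strand: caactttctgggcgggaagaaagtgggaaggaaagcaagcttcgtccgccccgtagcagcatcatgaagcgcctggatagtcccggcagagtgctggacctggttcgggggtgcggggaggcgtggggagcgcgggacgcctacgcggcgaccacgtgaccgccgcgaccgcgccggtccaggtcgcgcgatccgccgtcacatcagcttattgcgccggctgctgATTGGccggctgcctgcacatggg
Npc1l1, chr11:6230246-6230495, minus strand: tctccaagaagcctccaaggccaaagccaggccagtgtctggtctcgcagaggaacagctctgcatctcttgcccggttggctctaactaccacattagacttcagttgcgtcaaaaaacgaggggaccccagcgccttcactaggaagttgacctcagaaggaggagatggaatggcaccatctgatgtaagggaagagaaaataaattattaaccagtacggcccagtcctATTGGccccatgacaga
The window of Hmgcs1 held 3 CCAAT boxes, that of Mvd held 2, and those of Sc5d and Npc1l1 held 1 each. A match is a description of the letters and does not show binding.

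Values below are normalized counts, in which each gene's read count was divided by 1 factor per library, from 0.821 to 1.33. Libraries are named as in the table's headers, and values are always listed in the order WT3, WT5, WT7 and WT8 for WT, then KO4, KO5, KO7 and KO8 for Gsdme_KO. The header numbers do not follow the mouse numbers 1 to 4 of the labels, so libraries were assigned to a genotype only. The libraries held 15617407 to 23437343 reads in genes. Gsdme itself was lower in all 4 Gsdme_KO libraries than in any WT library, at 12.3% of the WT mean (log2 difference -3.32, exact permutation p = 0.0286, two-sided, the smallest that 4 against 4 can give), and a residual 113 to 634 normalized counts remained. Cell type markers set KO4 and KO5 apart. The 10 B cell markers summed to 10996 and 6254 normalized counts there, against 249 to 367 in WT, 346 in KO7 and 282 in KO8, with Cr2 at 0 in WT7. The 18 markers of mature enterocytes, the absorptive cells in which sterol uptake takes place, summed to 186389 in KO4 and to 275217 in KO5. The sums were 377436 to 663626 in WT, 667330 in KO7 and 499164 in KO8. Of the 18 enterocyte markers, 18 lay below the WT mean of log2 values in KO4 and 17 in KO5. The exception was Apoa4, which at 15668 in KO5 was the highest of the 8 libraries. The ileal markers Fabp6 and Slc10a2 were detected in all 8 libraries, but at uneven levels. Fabp6 stood at 31.2% of its WT mean for KO4, 46.7% for KO5, 121% for KO7 and 105% for KO8. Slc10a2 stood at 37.7%, 42.3%, 118% and 80.9% of its WT mean, listed the same way. Fabp6 also varied within WT, from 17519 normalized counts (WT8) to 72985 (WT5). Whether the libraries came from the same stretch of ileum was not tested. In bulk tissue, fewer cells of a type and less RNA per cell cannot be told apart.

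No member passed the test between genotypes, but most had a lower mean in Gsdme_KO. By limma on log2(normalized count + 1), 0 of 32 members were called at an adjusted p under 0.05, with adjusted p from 0.849 to 0.999, where 0.00612% of the 16352 tested genes were called higher and 0% lower. The edgeR and DESeq2 tests on recovered reads also called 0 members, with smallest adjusted p of 0.812 and 0.463. Gsdme itself, at a log2 fold change of -3.32, was not called by limma (adjusted p = 0.786) or edgeR (adjusted p = 0.812). Only DESeq2 called it (adjusted p = 2.3e-07). The lack of a call therefore does not show that a member was unchanged. Over all tested genes, the share called by edgeR was 0.00612% upward and 0% downward, and by DESeq2 0.0489% upward and 0.00612% downward. At an unadjusted p under 0.05, limma left 1 member lower, Idi1, against 1.77% of all tested genes, and 0 higher, against 2.61%, and edgeR and DESeq2 left 1 each, also Idi1. Leaving out KO7 alone put 17 members below that line in limma, all with lower means, in a fit where 5.6% of all genes tested were lower and 6.01% higher at the same line. With all 8 libraries, the unadjusted line was passed in edgeR by 4.43% of tested genes upward and 1.58% downward, and in DESeq2 by 5.12% and 1.82%. The mean was lower in Gsdme_KO for 28 of 32 members, where 49.4% of all tested genes were lower. The exceptions were Ggps1, Nr1h2, Srebf1 and Scap, with log2 fold changes of 0.01 to 0.08. The median log2 fold change of the members was -0.21, against 0.00 over all tested genes. In 0 members were all 4 Gsdme_KO libraries below all WT libraries, a pattern found in 1.19% of tested genes, and in 0 were they above, against 1.31%. The p-values rest on 4 mice a group, 1 library from each as the labels name them.

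The lowest values were mostly those of KO4 and KO5, but KO8, like WT8, also lay below the WT mean in most members. KO4, KO5 and KO8 each lay below it in 28 of 32 members, against 49.2%, 48.9% and 49% of tested genes, and KO7 in 6. WT8, itself part of that mean, lay below it in 26. Without KO4 and KO5, a comparison added after the data were seen, 17 members had a lower and 15 a higher mean. Of all tested genes, 48% were lower there. The median log2 fold change of the members was -0.00, over KO7, mostly above the WT mean, and KO8, mostly below it. No member then reached an unadjusted limma p under 0.05 (background 1.71% lower and 1.03% higher), and the limma adjusted p was 0.999 throughout, where 0.00617% of tested genes were called. KO4 was the lowest of the 8 libraries in 22 of 32 members, against 24.4% of tested genes, and either KO4 or KO5 was the lowest in 26, against 34.1%. KO4 and KO5 both lay below the other 6 libraries in 21 members, against 13.5% of tested genes, and above them in 0, against 14.1%. KO4 was below every WT library in 24 members (background 30.4%), and so was KO5 in 24 (background 23%). The 2 libraries with fewest enterocyte marker counts and most B cell marker counts were thus the 2 with the lowest member values, and the part of these cells in the result was not tested.

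KO7 and KO8 differed from each other as well. KO7 was above KO8 in 29 of 32 members (background 51.8%), above every WT library in 10 members (background 18.3%) and below every WT library in 1 (background 17.2%). KO8 was below every WT library in 10 (background 14.5%), 9 of them synthesis enzymes, and above in 1 (background 14.2%). Both lay within the WT range in 12 of 32 members, against 50.5% of tested genes. The median log2 difference from the WT mean over the members was -0.45 for KO4, -0.36 for KO5, 0.10 for KO7 and -0.11 for KO8. Among WT libraries it was 0.09 in WT3, 0.02 in WT5, 0.04 in WT7 and -0.14 in WT8. WT8 was the lowest WT library in 23 of 32 members (background 31.3%), and it also had the lowest enterocyte marker sum of the 4. The SD of the log2 values was larger in Gsdme_KO than in WT for 28 of 32 members, against 59.5% of tested genes.

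**Figure D1:**
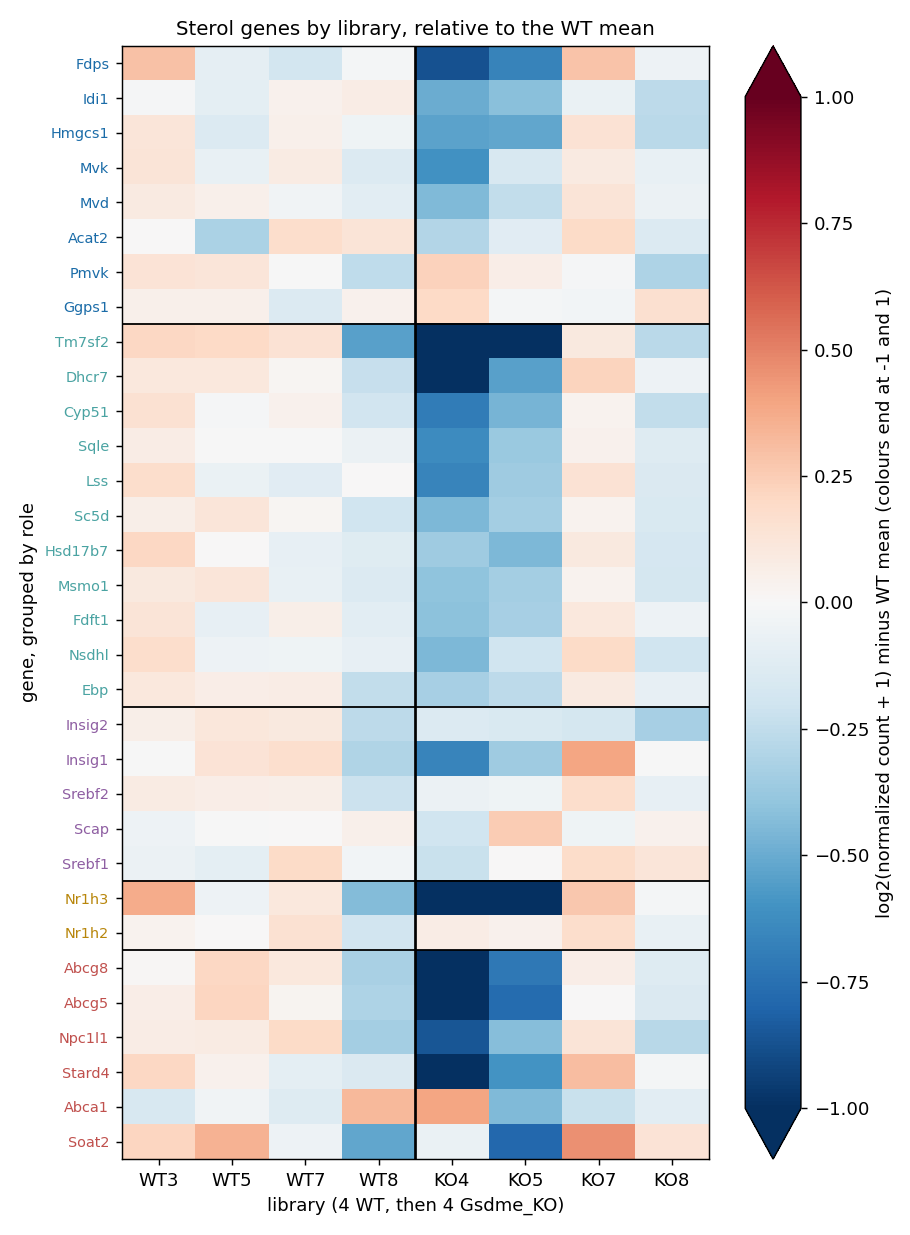
Heat map of the log2 difference from the WT mean for the 32 members (rows, by role) in the 8 libraries (columns). The columns of KO4 and KO5 are low in most rows, with medians of -0.45 and -0.36, while those of KO7 and KO8 lie near 0, with medians of 0.10 and -0.11.

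The members differed widely in level. Per kilobase of merged exons and as WT means, the highest member was Hmgcs1, at 3115 ± 239.8 normalized counts per kilobase (SD, n = 4). Npc1l1 followed at 2749 ± 417, with an SD that overlaps that of Hmgcs1. The order depends on the length used, because the merged exons of some members are much longer than their longest coding transcript. Msmo1 has 6144 merged exon bases against a transcript of 2044, and Lss 10787 against 4667, while Npc1l1 has 4467 in both. Cyp51 had 1547 ± 154, Msmo1 1139.9 ± 101 and Abcg5 1076 ± 159 per kilobase, and the SDs of the latter pair overlap. The lowest were Fdps at 31.3 ± 4.68, Abca1 at 58.6 ± 9.57, Scap at 109 ± 3.27 and Lss at 111 ± 9.91 per kilobase, of which Scap and Lss did not differ beyond their spread. Srebf2 stood at 597 ± 55.6 per kilobase and Srebf1 at 175 ± 16.3, so the factor known mainly for cholesterol genes had the higher level of the pair in every library.

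**Figure D2:**
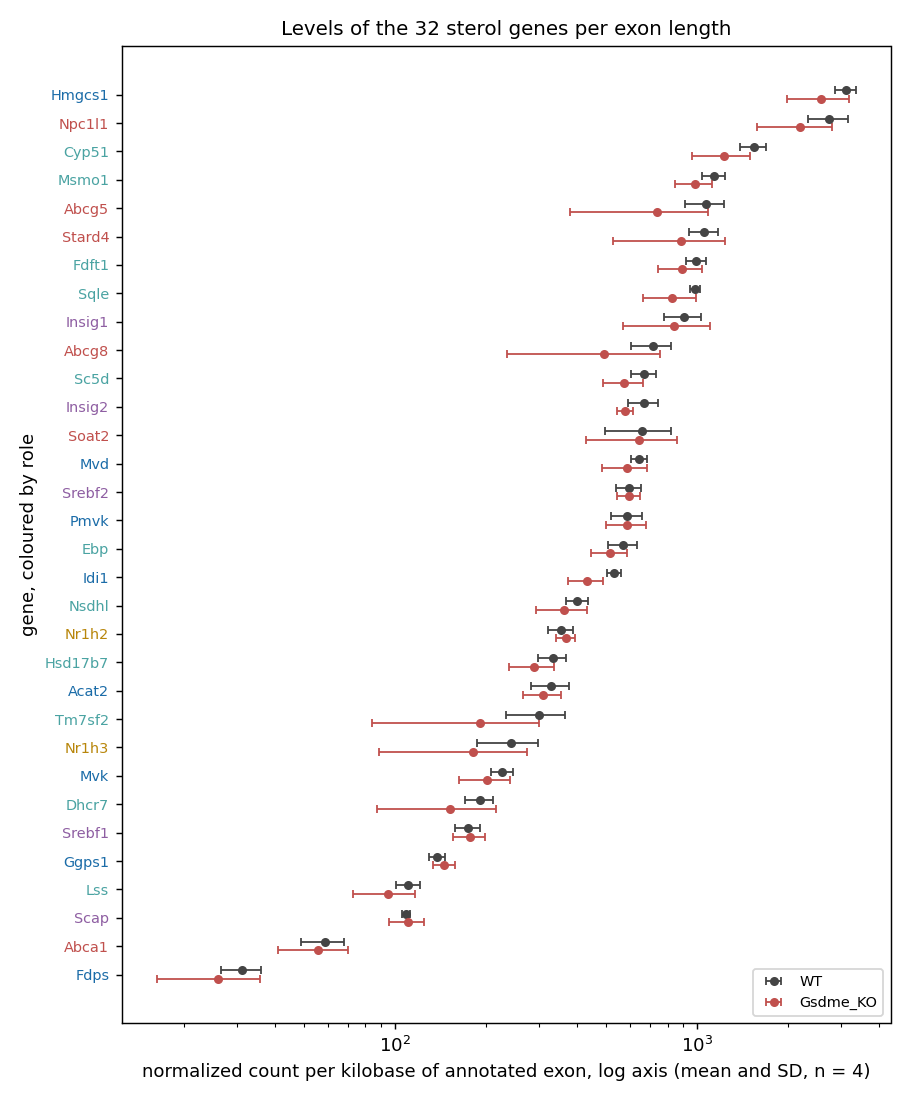
Level of each member per kilobase of merged exons, as the mean of 4 libraries in WT and in Gsdme_KO, on a log axis, with SD. Hmgcs1 (3115 per kilobase in WT) and Npc1l1 (2749) stand highest and Fdps (31.3) lowest. The order depends on the use of merged exon length, and the Fdps counts are uncertain.

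The mevalonate enzymes had lower means in Gsdme_KO in 7 of 8 cases, 0 of them called, with a median log2 fold change of -0.17. Idi1 (ENSMUSG00000058258, chromosome 13, 8885501 to 8892451, plus strand, GRCm38), which interconverts the 5-carbon isoprene units, had the smallest p of all members. Its normalized counts were 1848, 1739.9, 1921 and 1961 in WT and 1319, 1398, 1779.97 and 1554 in Gsdme_KO. KO4, KO5 and KO8 were below all WT libraries, but KO7 lay within the WT range, so the groups overlapped. The means were 1867 ± 96.9 for WT and 1513 ± 203 for Gsdme_KO (SD, n = 4 each), and the log2 fold change was -0.31 (SE 0.103, limma adjusted p = 0.849). It was -0.17 without KO4 and KO5.

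Hmgcs1 (ENSMUSG00000093930, chromosome 13, 119690379 to 119708260, plus strand), which makes the HMG-CoA that feeds mevalonate and whose promoter is printed above, counted 15559, 13012, 14777 and 13888 in WT and 9855, 9967, 15760.2 and 11872 in Gsdme_KO. KO4, KO5 and KO8 lay below all WT libraries and KO7 above them all. The log2 fold change was -0.29 (SE 0.159, limma adjusted p = 0.849) and -0.06 without KO4 and KO5. Fdps (ENSMUSG00000059743, chromosome 3, 89093588 to 89101959, minus strand), farnesyl diphosphate synthase, counted 159.99, 123, 115 and 129 in WT and 71, 81.9, 159.6 and 126 in Gsdme_KO. KO4 and KO5 were again the lowest, and KO7 and KO8 lay within the WT range (log2 fold change -0.33, SE 0.261, limma adjusted p = 0.849). Its counts are uncertain, because 86.4% of the 50-base windows of its transcript also occur in other annotated transcripts, among them the processed pseudogene Gm3571, itself at 214 to 277 normalized counts and so above Fdps in every library. The window share was 30.5% for Idi1 and 45.9% for Acat2, whose copies Idi1-ps1 and Acat3 stayed at 10.2 to 21.5 and 3.65 to 21.2 normalized counts. Acat2 also shared 13.2% of its windows with Tcp1, itself at 3203 to 4155 normalized counts and so above Acat2 in every library.

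The other mevalonate enzymes were Acat2, Mvk, Pmvk, Mvd and Ggps1, with log2 fold changes of -0.19 to 0.08. Acat2 makes acetoacetyl-CoA, Mvk and Pmvk phosphorylate mevalonate, Mvd decarboxylates it, and Ggps1 leads off to the geranylgeranyl branch. In KO4, Mvk was at 65.5% and Mvd at 73.7% of the WT mean, whereas Pmvk was at 116% and Ggps1 at 114%. KO4 and KO5 together lay below the other 6 libraries in 5 of the 8 enzymes, Pmvk, Ggps1 and Acat2 being those where they did not.

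All 11 enzymes from squalene synthesis to cholesterol had a lower mean in Gsdme_KO, with a median log2 fold change of -0.23, and 0 were called (limma adjusted p = 0.849 in each). KO4 and KO5 both lay below the other 6 libraries in 10 of 11, and both were below every WT library in all 11. Without those libraries 8 of 11 were lower, with a median of -0.04. Cyp51 (ENSMUSG00000001467, chromosome 5, 4081145 to 4104746, minus strand), the lanosterol demethylase, had the smallest p in this stretch. Its counts were 7581, 6767, 7029 and 5946 in WT and 4182, 4922, 6964 and 5731 in Gsdme_KO, with KO8 also below all WT libraries and KO7 within their range. The means were 6831 ± 680.3 for WT and 5449.6 ± 1191 for Gsdme_KO (SD, n = 4 each), and the log2 fold change was -0.35 (SE 0.158, limma adjusted p = 0.849), and -0.11 without KO4 and KO5.

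Sqle (ENSMUSG00000022351, chromosome 15, 59315077 to 59331192, plus strand), squalene epoxidase and a rate-limiting step, counted 5759.8, 5449.5, 5465 and 5246 in WT and 3537, 4246, 5642 and 4999 in Gsdme_KO. KO4, KO5 and KO8 were below all 4 WT libraries, which lay close together (log2 fold change -0.27, SE 0.139, limma adjusted p = 0.849, -0.04 without KO4 and KO5). Msmo1 (ENSMUSG00000031604, chromosome 8, 64718139 to 64733792, minus strand), the sterol C4 demethylase with an SREBP element printed above, counted 7459.6, 7599, 6616 and 6339 in WT and 5292, 5516, 7167 and 6191 in Gsdme_KO. The order of libraries was the same as for Sqle within Gsdme_KO, with KO4 lowest and KO7 highest, and the log2 fold change was -0.22 (SE 0.118, limma adjusted p = 0.849, -0.07 without KO4 and KO5). Sc5d (ENSMUSG00000032018, chromosome 9, 42251595 to 42264256, minus strand), lathosterol oxidase, counted 3379, 3529, 3284 and 2832 in WT and 2373, 2568, 3332 and 2914 in Gsdme_KO. KO4 and KO5 lay below WT and KO7 and KO8 within it (log2 fold change -0.23, SE 0.121, limma adjusted p = 0.849, -0.06 without KO4 and KO5).

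Tm7sf2 (ENSMUSG00000024799, chromosome 19, 6062821 to 6068373, minus strand), a sterol C14 reductase, had the most negative log2 fold change of all 32 members. It counted 1489, 1485, 1425 and 886 in WT and 317, 609.8, 1384 and 1071 in Gsdme_KO, so KO4 was at 24% and KO5 at 46.2% of the WT mean, and WT8 was also apart from the other WT libraries. KO7 and KO8 lay within the WT range. The means were 1321 ± 292 for WT and 846 ± 475 for Gsdme_KO (SD, n = 4 each), and the log2 fold change was -0.82 (SE 0.423, limma adjusted p = 0.849), and -0.09 without KO4 and KO5. Its exons overlap those of Vps51 on the same strand over 12.1% of their length. Dhcr7 (ENSMUSG00000058454, chromosome 7, 143823145 to 143848410, plus strand), which makes cholesterol from 7-dehydrocholesterol, counted 1189, 1189.7, 1121 and 942 in WT and 426, 758, 1289 and 1066 in Gsdme_KO. KO4 and KO5 were the lowest libraries and KO7 the highest of all 8 (log2 fold change -0.44, SE 0.304, limma adjusted p = 0.849, 0.08 without KO4 and KO5).

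The remaining 5 enzymes of this stretch were Fdft1 (squalene synthase), Lss (lanosterol synthase), Nsdhl and Hsd17b7 (both of C4 demethylation) and Ebp (a sterol isomerase), and their log2 fold changes ran from -0.25 to -0.14. Lss in KO4 was at 63.2% of the WT mean and Hsd17b7 in KO5 at 73.1%. Fdft1 overlaps the exons of Ctsb on the opposite strand over 18.3% of its exon length, and whether the counting used strand is not given in the sources used here. Over all 19 synthesis enzymes, the summed normalized count was 38390.2 in KO4 and 41704 for KO5, against WT sums of 51107 to 59573, 58383 in KO7 and 48436 in KO8. Enterocyte markers were lowest in the same 2 libraries, with median log2 differences from the WT mean of -1.67 in KO4 and -0.80 in KO5, against -0.45 and -0.34 for the synthesis enzymes, and their part in these values was not tested.

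**Figure D3:**
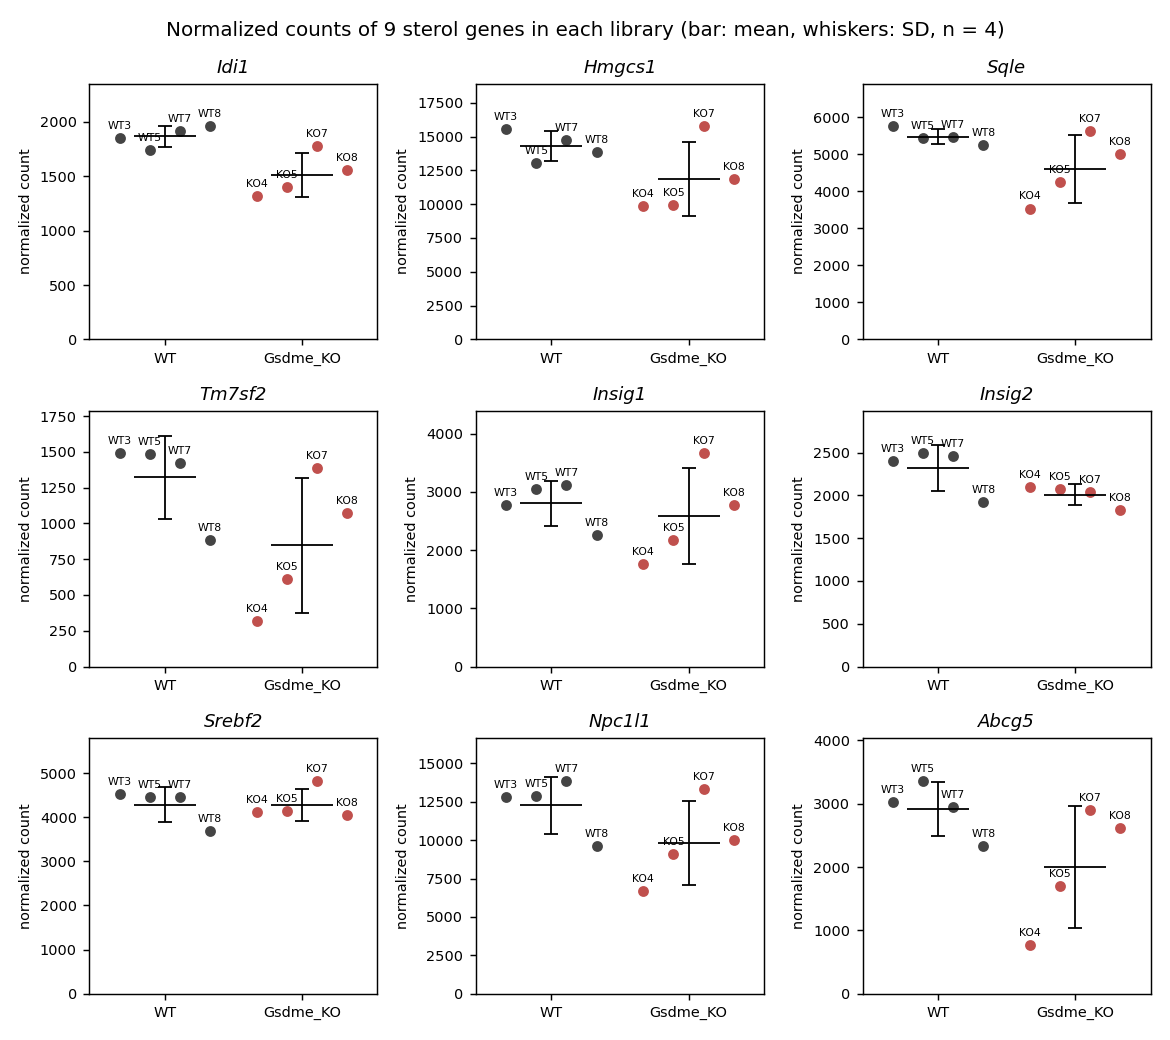
Normalized counts of 9 members in each library (points, labelled by library), with the group mean (bar) and SD (whiskers, n = 4), on linear axes from 0. KO4 and KO5 are the lowest libraries for most of the genes shown, for example 317 and 609.8 for Tm7sf2, while KO7 and KO8 fall in or near the WT range.

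The control genes of the SREBP pathway had a median log2 fold change of -0.00, and set against WT, KO4 had a median of -0.20, KO5 of -0.05, KO8 of -0.00 and KO7 of 0.18. Of 5, 3 had a lower and 2 a higher mean in Gsdme_KO, 0 were called, and KO4 and KO5 both lay below the other libraries in Insig1 only. Srebf2 (ENSMUSG00000022463, chromosome 15, 82147181 to 82205379, plus strand), which encodes the SREBP known mainly for cholesterol genes, counted 4535, 4469, 4459 and 3692 in WT and 4115, 4138, 4832 and 4046 in Gsdme_KO. KO4 and KO5 lay within the WT range (log2 fold change -0.00, SE 0.0988, limma adjusted p = 0.999), which WT8 widened at its lower end. Srebf1 (ENSMUSG00000020538, chromosome 11, 60199089 to 60222581, minus strand), known mainly for fatty acid synthesis genes, counted 941, 915, 1118 and 963 in WT and 839.7, 982, 1114 and 1064 in Gsdme_KO. KO4 was the lowest and KO5, KO7 and KO8 lay within the WT range (log2 fold change 0.02, SE 0.11, limma adjusted p = 0.977).

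Scap, the escort of both SREBP proteins, had a log2 fold change of 0.01, and 13.1% of its transcript windows are shared with an overlapping gene model on the opposite strand. Insig1 (ENSMUSG00000045294, chromosome 5, 28071363 to 28078662, plus strand), itself a target of SREBP, counted 2777, 3049.9, 3122 and 2258 in WT and 1761, 2172, 3662 and 2776 in Gsdme_KO. KO4 and KO5 lay below and KO7 above all WT libraries, so that the Gsdme_KO range spanned the WT range on both sides (log2 fold change -0.15, SE 0.217, limma adjusted p = 0.901, 0.20 without KO4 and KO5). Insig2 (ENSMUSG00000003721, chromosome 1, 121304353 to 121332589, minus strand), the other retention protein, showed a different pattern. It counted 2398, 2490.2, 2462 and 1920.3 in WT and 2095, 2071, 2038 and 1832 in Gsdme_KO, with every Gsdme_KO library below WT3, WT5 and WT7 but only KO8 below WT8 (log2 fold change -0.20, SE 0.101, limma adjusted p = 0.849). Without KO4 and KO5 it was -0.25, the most negative of the members in that comparison.

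Ratios between members do not depend on how libraries are scaled, and 4 were compared by two-sided exact permutation tests, adjusted over the 4. The Insig1 to Insig2 ratio was 1.16, 1.22, 1.27 and 1.18 in WT and 0.84, 1.05, 1.80 and 1.52 in Gsdme_KO. All 4 Gsdme_KO values lay outside the WT range, KO4 and KO5 below and KO7 and KO8 above, and the mean log2 difference was 0.05 (exact p = 0.857, adjusted p = 0.914). The Srebf1 to Srebf2 ratio ran from 0.205 to 0.261 in WT and from 0.204 to 0.263 in Gsdme_KO, with a log2 difference of 0.02 (exact p = 0.857, adjusted p = 0.914).

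The LXR genes showed different patterns, and neither was called. Nr1h3 (ENSMUSG00000002108, chromosome 2, 91184061 to 91202834, minus strand), encoding LXR alpha, counted 775, 578, 644 and 443 in WT and 281, 239, 719 and 591 in Gsdme_KO. KO5 and KO4 were the lowest libraries, at 39.2% and 46.1% of the WT mean, while KO7 and KO8 lay within the WT range (log2 fold change -0.54, SE 0.359, limma adjusted p = 0.849, 0.12 without KO4 and KO5). Nr1h2 (ENSMUSG00000060601, chromosome 7, 44549616 to 44553951, minus strand), encoding the more widely expressed LXR beta, counted 1222, 1193, 1321 and 1044 in WT and 1251, 1224, 1349 and 1134 in Gsdme_KO. KO4, KO5 and KO8 were within the WT range and KO7 just above it (log2 fold change 0.05, SE 0.094, limma adjusted p = 0.92).

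All 6 genes of transport and esterification had a lower mean in Gsdme_KO, with a median log2 fold change of -0.35, and 0 were called. Without KO4 and KO5, 4 of 6 were lower and the median was -0.05. Abcg5 (ENSMUSG00000040505, chromosome 17, 84658234 to 84683011, minus strand) and Abcg8 (ENSMUSG00000024254, chromosome 17, 84676302 to 84700333, plus strand) encode the partners that form 1 efflux pump, and their closest RefSeq starts lie 110 bases apart on opposite strands. Abcg5 counted 3024, 3364, 2952 and 2328 in WT and 771, 1700.1, 2897 and 2613 in Gsdme_KO, with KO4 at 26.4% and KO5 at 58.3% of the WT mean. Abcg8 counted 2678, 3064, 2853 and 2124 in WT and 591, 1619.8, 2777 and 2431 in Gsdme_KO, with KO4 at 22% and KO5 at 60.4%. For both, KO7 and KO8 lay within the WT range, and the log2 fold changes were -0.70 (SE 0.376, limma adjusted p = 0.849) and -0.74 (SE 0.433, limma adjusted p = 0.849), or -0.07 and -0.03 without KO4 and KO5.

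The Abcg5 to Abcg8 ratio was 1.03 to 1.13 in WT, 1.05 in KO5, 1.04 in KO7, 1.07 in KO8 and 1.31 in KO4, a mean log2 difference of 0.03 (exact permutation p = 0.914, adjusted p = 0.914). Npc1l1 (ENSMUSG00000020447, chromosome 11, 6211013 to 6230143, minus strand), the uptake transporter, counted 12795, 12856, 13878 and 9587 in WT and 6712, 9072, 13314 and 10038 in Gsdme_KO. KO4 and KO5 were the lowest libraries, at 54.7% and 73.9% of the WT mean, a smaller departure than for the pump genes (log2 fold change -0.36, SE 0.208, limma adjusted p = 0.849, -0.07 without KO4 and KO5). The Npc1l1 to Abcg5 ratio was 3.82 to 4.70 in WT, 4.59 in KO7, 3.84 in KO8, 5.33 in KO5 and 8.69 in KO4, a log2 difference of 0.35 (exact permutation p = 0.229, adjusted p = 0.914).

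Stard4, which carries sterol between membranes, ranged from 2785 in KO4 to 7297 in KO7, beyond the WT range on both sides. Soat2 was lowest in KO5, at 56.5% of the WT mean, and highest in KO7. Abca1, the only member of this group with its highest value in KO4, was there at 130% of the WT mean and in KO5 at 72.7%. Macrophage markers, from cells that also express Abca1, summed to 15102 for KO4 and 11603.5 for KO5, with WT sums of 7794 to 10781, 7259.98 in KO7 and 8135 in KO8, and their part in the Abca1 values was not tested. The transport genes were lower in the libraries with fewer enterocyte marker counts (medians of -0.97 in KO4 and -0.66 in KO5 from the WT mean), and the part of enterocytes in this was not tested either.

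**Figure D4:**
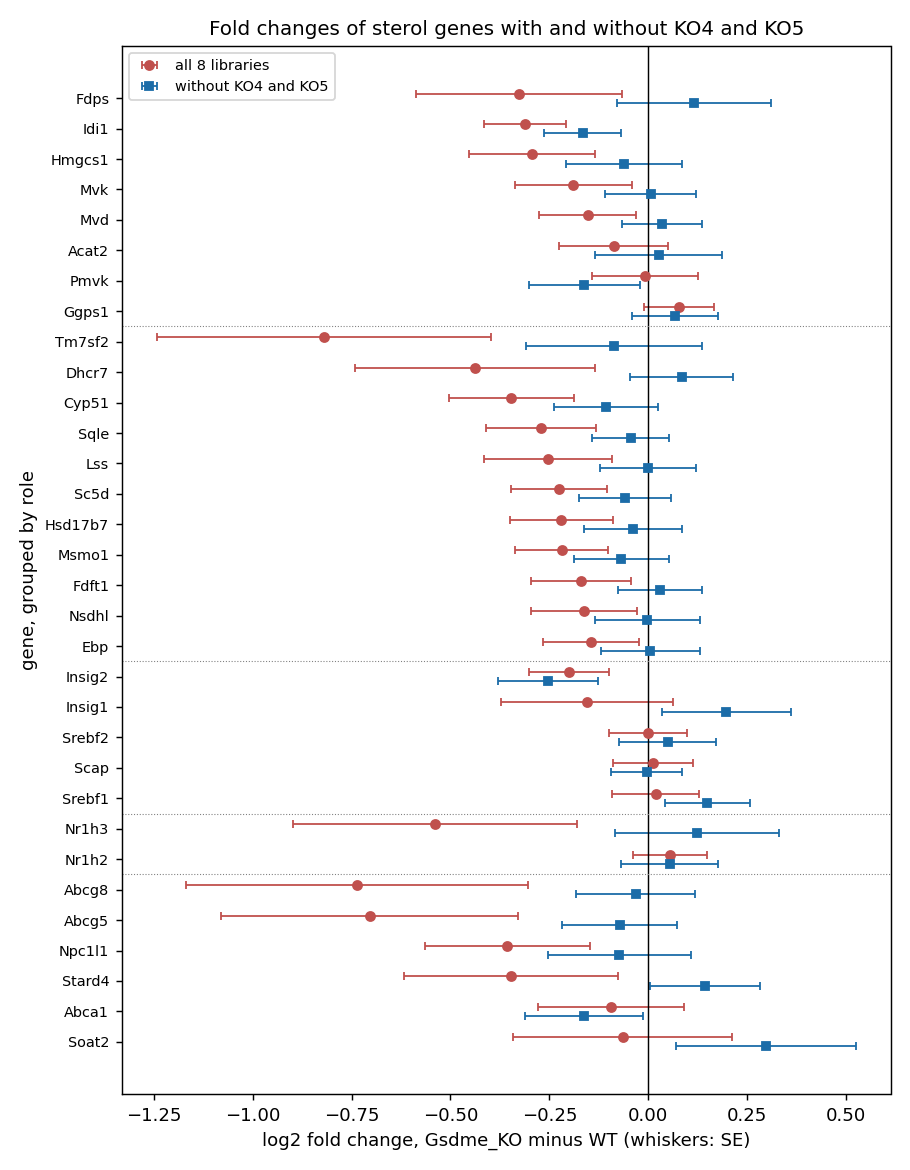
Log2 fold change of each member, Gsdme_KO against WT, with its SE, from all 8 libraries and without KO4 and KO5. The points from all libraries lie mostly below 0 (median -0.21), and those without KO4 and KO5 lie around 0 (median -0.00).

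The wider pathway was read from 6 further lists of 62 genes, of which 61 were tested and 0 were called, 32 with a lower and 29 with a higher mean. The synthesis partners and isoprenoid branch came closest to the members, with 9 of 13 lower and a median log2 fold change of -0.10. In that list Cyb5b, an electron donor, counted 13084, 11936, 10817 and 10660.1 in WT and 7023, 9231, 12361 and 10518 in Gsdme_KO (log2 fold change -0.27, SE 0.171, limma adjusted p = 0.849), and KO4 was the lowest library. Of the 10 genes of SREBP processing and sterol-sensing degradation, 5 were lower and 5 higher. Erlin1 and Erlin2, paired proteins of the endoplasmic reticulum that bind SREBP complexes, were the members of that list with the smallest p. Erlin1 counted 1969, 1748, 1758 and 1545 in WT and 612, 739, 2021 and 1774 in Gsdme_KO (log2 fold change -0.63, SE 0.371, limma adjusted p = 0.849, 0.11 without KO4 and KO5).

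The list of 6 further LXR targets does not hold Abcg5, Abcg8 and Abca1, which are LXR targets described above with the transport genes, so its direction depends on which targets it holds, and it was not tested as a list. Of its genes, 4 had a higher and 2 a lower mean in Gsdme_KO, with medians of 0.44 in KO4 and 0.21 in KO5 from the WT mean. Abcg1, a sterol exporter of macrophages and other cells, counted 117, 161, 129 and 134 in WT and 355, 226, 159.6 and 154 in Gsdme_KO (log2 fold change 0.65, SE 0.262, limma adjusted p = 0.849, 0.22 without KO4 and KO5). KO4 and KO5 lay above all WT libraries, as did the macrophage marker sum, whose part was not tested. Lpcat3, a phospholipid remodelling enzyme abundant in enterocytes, counted 6268, 6520.1, 5713 and 3726 in WT and 2873, 4612, 6323 and 5353 in Gsdme_KO (log2 fold change -0.24, SE 0.262, limma adjusted p = 0.875). The SREBP1 lipogenic list split into 7 lower and 7 higher, with Scd2, a stearoyl-CoA desaturase, at 11643, 10984, 12496 and 11237 in WT and 4998, 8401, 11818 and 10258 in Gsdme_KO (log2 fold change -0.45, SE 0.239, limma adjusted p = 0.849) and Elovl6, a fatty acid elongase, with a change of -0.23 on that scale (SE 0.103, limma adjusted p = 0.849). Uptake, movement and storage genes split into 8 lower and 6 higher, and Stard5 had the smallest p there (log2 fold change 0.31, SE 0.126, limma adjusted p = 0.849).

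Oxysterol synthesis had 4 tested genes, 1 lower and 3 higher. Cyp27a1, the sterol 27-hydroxylase, counted 401, 350.1, 416 and 372 in WT and 179, 206, 342 and 318 in Gsdme_KO. All 4 Gsdme_KO libraries lay below all WT libraries, as in 1 of the 61 genes here and in 1.19% of all tested genes, with KO4 and KO5 lowest (log2 fold change -0.61, SE 0.21, limma adjusted p = 0.849, -0.22 without KO4 and KO5). Ch25h, the cholesterol 25-hydroxylase of immune cells, was low, at 28.4, 35.7, 22.1 and 40.6 in WT and 76.5, 51.8, 25.6 and 34.7 in Gsdme_KO (log2 fold change 0.48, SE 0.357, limma adjusted p = 0.849). Of the other genes eligible by the naming rule, those reported had log2 fold changes of -0.29 for Erlin2, -0.36 for Gramd1b, 0.11 for Npc2, -0.04 for Osbp, 0.51 for Arl4c, 0.19 for Smpdl3a, 0.29 for Me1 and 0.16 for Cyp7b1, and none was called (limma adjusted p of 0.849 to 0.937).

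**Figure D5:**
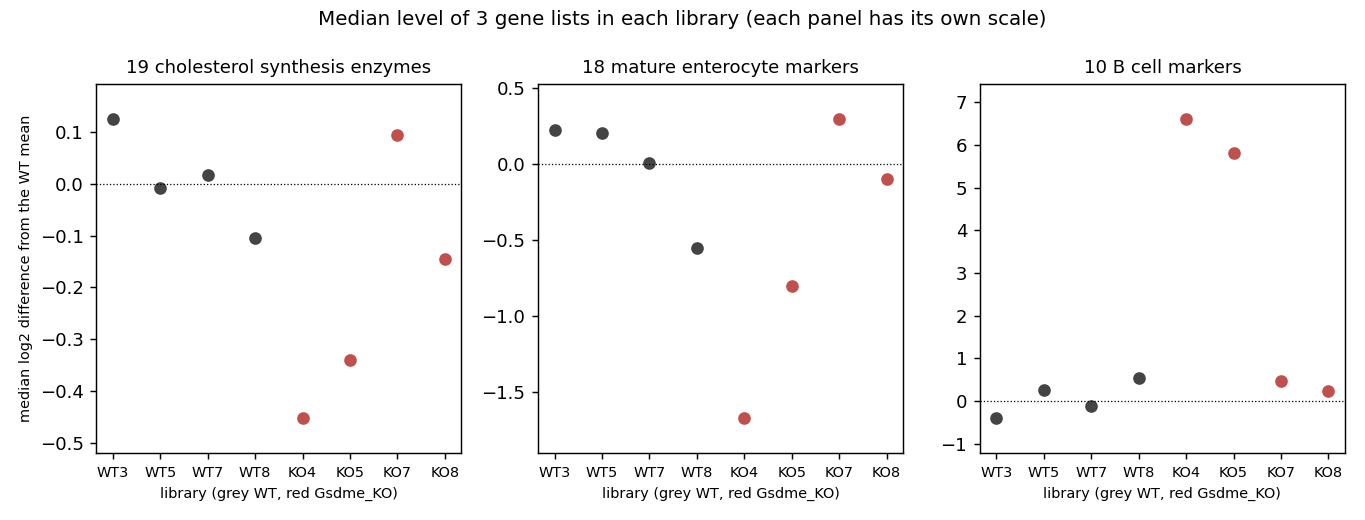
Median log2 difference from the WT mean in each library for the synthesis enzymes, the mature enterocyte markers and the B cell markers, each panel on its own scale. In KO4 and KO5 the enterocyte markers are lower (-1.67 and -0.80) and the B cell markers higher (6.60 and 5.82), with the synthesis enzymes at -0.45 and -0.34.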

How the data were processed

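Ileum RNA of 8 mice given irinotecan, 4 WT and 4 Gsdme_KO, was sequenced from poly(A)-selected, strand-specific libraries, per the labels' protocols. The submitters' processing notes list the build GRCm38 and the tools DESeq2, featureCounts, HISAT2, SAMtools and Subread. Their versions, the annotation used and whether counting used strand are not given in the sources used for this work. The deposited table is normalized signal per gene, each value being a read count that the authors divided by 1 factor per library. All values (100%) came out as whole reads within a tolerance of 0.01 reads. The table had 0 rows without a gene ID, and 0 columns of per-sample values were left unused.

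Genotypes were compared by limma-trend (limma 3.58.1, R 4.3.3) on log2 values after adding a pseudocount of 1. The 16352 genes averaging 10 or more normalized counts entered the fit, with Benjamini-Hochberg adjustment over all of them, a call at an adjusted p under 0.05 and no covariate. Fold changes on this scale understate the change of low genes. Single values and ratios were compared by two-sided exact permutation tests over the 70 assignments of libraries. On the recovered reads, edgeR 4.0.16 called 1 gene higher and 0 lower, and DESeq2 1.42.0 called 8 higher and 1 lower. The limma fit was also tested on simulated counts. The other alternatives were array quality weights, TMM and quantile scaling, pseudocounts of 0.5 and 5, a minimum mean of 50 or none, and each library left out. Leaving out KO4 and KO5 together was added after the data were seen.

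The rule for the members uses no measured value, but the list of symbols, the other lists and the tests were drawn up with earlier results of these data known. Values in each library are given for the 8 members of smallest p and, in each role group, the 3 of largest absolute fold change and the 1 of highest mean, 18 in all, and the other 14 are given by range. Of each other list, called genes or else the 2 of smallest p and the 2 of highest mean were eligible, and some of these are not reported here. Gene positions and exon lengths are from GENCODE M21, which held 55141 of the 55487 gene IDs, and promoters are from RefSeq. Shared sequence was measured as the share of 50-base windows of a member's transcript that occur in transcripts of another gene.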

Additional observations from a re-analysis of the deposited data

Results flagged for a closer look

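Each member, each ratio and Gsdme were checked in both genotypes for a single library far from the other 3, by the gap to the nearest library over the whole range. Of 74 groups checked, 8 were picked out, where chance picks out about 5%.

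WT8 was the low library in 4 of them. It held 885.7 normalized counts of Tm7sf2, against 1425 to 1489 in the other WT libraries. It held 1102 of Ebp, against 1371 to 1410.4. It held 3692 of Srebf2, against 4459 to 4535. It held 1920.3 of Insig2, against 2398 to 2490.2. WT8 also had the lowest enterocyte marker sum among WT libraries (377436), and the part of this in the values was not tested.

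The other WT libraries picked out were WT7, low for Ggps1 (592, against 669.6 to 674), and WT3, high for Nsdhl (1295, against 1080.2 to 1114). In Gsdme_KO, KO7 was high for Srebf2, at 4832 against 4046 to 4138. KO4 was apart in the log2 ratio of Abcg5 to Abcg8, at 0.38 against 0.06 to 0.10 in the other Gsdme_KO libraries.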

How the results depend on the processing

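No paired analysis was possible because the table's columns do not carry the labels' replicate numbers. The labels number the mice of each genotype separately, and they do not state that any WT mouse was paired with a Gsdme_KO mouse.

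Under every alternative run, 0 members were called. The count of members with a lower mean in Gsdme_KO was 26 to 29 when 1 library was left out and 26 to 28 under the other alternatives with all 8 libraries, and the median log2 fold change of the members ran from -0.31 to -0.12 when 1 library was left out. Leaving out KO7 put 17 members at an unadjusted limma p under 0.05, all lower, against 1 with all libraries, and the same step raised the count over all genes from 290 to 915 lower. Without KO4 and KO5, 17 members were lower, the median was -0.00128, 0 genes were called higher and 1 lower, and Gsdme was at -2.37 (exact permutation p = 0.0667, the smallest that 4 against 2 allows). Over all genes, DESeq2 called 8 higher and 1 lower, and limma called 0 to 1 higher when 1 library was left out.

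Of 576 member values under alternatives, 42 changed sign and 15 members never did, and the cause was not tested. Without KO4 and KO5 the log2 fold change changed sign for Acat2 (0.0265), Mvk (0.00594), Mvd (0.0351), Fdps (0.12), Fdft1 (0.0294), Ebp (0.00542), Dhcr7 (0.0845), Srebf2 (0.049), Scap (-0.0035), Insig1 (0.20), Nr1h3 (0.12), Stard4 (0.14) and Soat2 (0.30), as did the log2 difference of the Abcg5 to Abcg8 ratio (-0.0403) and of the Npc1l1 to Abcg5 ratio (-0.00158). Other sign changes were Srebf2 (0.00332) with TMM scaling, Nr1h2 (-0.0381) and Soat2 (0.00341) with array quality weights, Pmvk (0.00381) and Srebf2 (0.00401) with edgeR and Pmvk (0.0199) and Srebf2 (0.0339) with quantile normalization. With 1 library left out, the log2 fold change ran from -0.0712 to 0.0277 for Srebf2, -0.34 to 0.0134 for Insig1, -0.0684 to 0.0828 for Scap, -0.26 to 0.0226 for Abca1, -0.24 to 0.18 for Soat2, -0.0351 to 0.10 for Srebf1, -0.0909 to 0.0937 for Pmvk and -0.00856 to 0.10 for Nr1h2. The log2 difference ran from -0.0386 to 0.0833 for the Srebf1 to Srebf2 ratio, -0.0445 to 0.0631 for the Abcg5 to Abcg8 ratio and -0.13 to 0.23 for the Insig1 to Insig2 ratio.

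With 4 mice a group and KO4 and KO5 apart, differences of the size seen in the members could not be told from the spread. Fdps, Acat2, Idi1 and Fdft1 share 86.4%, 45.9%, 30.5% and 30.7% of their transcript windows with other genes, and their counts are uncertain.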
